A study of Mus musculus with 10 samples.

Results

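The kallikreins of the epidermis and their inhibitor Spink5 were followed in mouse back skin, 10 genes chosen by name: Klk5, Klk6, Klk7, Klk8, Klk9, Klk10, Klk11, Klk13, Klk14 and Spink5. All 10 were among the 24452 genes with a symbol in the deposited count table, and all 10 were among the 15543 genes that passed a filter on low counts and were tested. RNA was sequenced from full-thickness, treated but tumor-free back skin of 5 wild-type (WT) mice and 5 Zfp36ΔARE knock-in (KI) mice, 1 library per mouse, and total counts ran from 19595024 to 36419553 per library. The knock-in removes AU-rich instability elements from the 3′-UTR of Zfp36 at its own locus, in every cell of the body, so more of the protein it encodes, TTP, is made under its natural control. TTP binds AU-rich elements in mRNA 3′-UTRs and speeds the decay of those mRNAs. Both groups were C57BL/6 mice, the controls being littermates, and entered the experiment at 7 weeks of age. Both received 1 application of 400 nmol of the mutagen DMBA on shaved back skin and then, from 1 week later, repeated applications of 10 nmol of the phorbol ester TPA over 20 weeks. No library came from untreated skin, so all values describe skin under this treatment. By their Y-linked and Xist counts, given further on, all WT mice and KI mouse 1 were female and KI mice 2 to 5 male.

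Kallikreins are secreted serine proteases. In the outermost layer of the epidermis they form a cascade that cuts the corneodesmosomes, the junctions that hold dead keratinocytes together, and so lets these cells be shed. KLK5, a trypsin-like enzyme, can activate itself as well as KLK7 and KLK14, and KLK7 is the chymotrypsin-like enzyme of the cascade. Spink5 encodes LEKTI, a Kazal-type inhibitor of these proteases that keratinocytes of the granular layer secrete, and its loss causes Netherton syndrome, in which the skin barrier is shed too early.

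The 9 kallikrein genes lie close together on the plus strand of chromosome 7. They span 160.8 kb at chr7:43690418-43851181 in GRCm38 (the mm10 assembly to which the reads were aligned). Their order is Klk14, Klk13, Klk11, Klk10, Klk9, Klk8, Klk7, Klk6 and Klk5. Klk12, which is not among the 9, lies between Klk13 and Klk11.

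Because the knock-in changes the amount of an AU-rich element binding protein, the annotated 3′-UTRs of the 10 genes were searched for the core of such elements. The pentamer ATTTA occurred in 4 of the 10, with 3 copies in the 1660 bases of Spink5 and 1 copy each in Klk5, Klk7 and Klk13. It occurred in 68.9% of the 14408 tested genes with an annotated coding 3′-UTR, whose median length was 1140 bases. The kallikrein 3′-UTRs were shorter, from 53 bases in Klk8 to 907 bases in Klk7. The longer forms TATTTAT and TTATTTATT, which overlap the pentamer, occurred in 0 of the 10 genes and in 29.5% and 7.93% of the 14408. The strand of the mRNA alone was searched, and these matches describe letters and not sites where the protein was seen to bind. The 3 kallikrein matches are printed on the strand of the gene, with the pentamer in capitals. They lie in the last exon at chr7:43851135-43851163 for Klk5, chr7:43815887-43815915 for Klk7 and chr7:43727041-43727069 for Klk13.
Klk5 3′-UTR: gccgtcacccagATTTAgacctcaaataa
Klk7 3′-UTR: aaatagtagattATTTAcatgggagttgg
Klk13 3′-UTR: aaccctcagactATTTAccccttggcaat

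Promoters are shown for Klk13, Klk9, Klk8 and Klk6, the genes whose 5 highest libraries were the same (described further on). The stretches are the 250 bases upstream of a RefSeq start site in GRCm38.p6, on the plus strand, at chr7:43712317-43712566 for Klk13, chr7:43791641-43791890 for Klk9, chr7:43797327-43797576 for Klk8 and chr7:43824294-43824543 for the upstream one of the 2 start sites of Klk6. Capitals mark the GC box CCGCCC, read on either strand.
Klk13 promoter: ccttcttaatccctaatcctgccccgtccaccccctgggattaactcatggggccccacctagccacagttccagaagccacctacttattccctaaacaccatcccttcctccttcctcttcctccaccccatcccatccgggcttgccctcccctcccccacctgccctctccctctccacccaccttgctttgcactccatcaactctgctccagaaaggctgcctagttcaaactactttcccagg
Klk9 promoter: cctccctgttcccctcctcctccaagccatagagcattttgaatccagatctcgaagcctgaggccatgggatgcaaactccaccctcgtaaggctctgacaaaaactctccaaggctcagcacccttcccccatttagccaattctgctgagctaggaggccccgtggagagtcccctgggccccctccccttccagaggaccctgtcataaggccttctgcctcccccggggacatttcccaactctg
Klk8 promoter: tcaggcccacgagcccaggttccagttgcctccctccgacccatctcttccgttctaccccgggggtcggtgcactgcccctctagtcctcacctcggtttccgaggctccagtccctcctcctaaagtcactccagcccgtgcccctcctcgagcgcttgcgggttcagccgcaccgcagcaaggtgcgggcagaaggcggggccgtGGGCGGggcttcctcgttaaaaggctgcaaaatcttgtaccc
Klk6 promoter: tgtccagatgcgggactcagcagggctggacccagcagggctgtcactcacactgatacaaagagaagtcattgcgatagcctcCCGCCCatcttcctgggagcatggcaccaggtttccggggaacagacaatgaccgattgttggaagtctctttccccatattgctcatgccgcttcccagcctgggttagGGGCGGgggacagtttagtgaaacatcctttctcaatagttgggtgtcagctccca

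RefSeq gave 11 promoters for the 9 kallikreins, each holding 250 bases before and 50 bases after the start site. The GC box occurred in 5 of the 11 and in 35.7% of all 32851 promoters of that length. It lay in the promoters of Klk7, Klk8, Klk9 and both promoters of Klk6, and Klk6's upstream promoter had it at 2 places. The Klk9 match was at position 11 after the start site and so outside the upstream stretch printed above. The AP-1 motif TGANTCA, the element that phorbol esters act on, was in 0 of the 11 (7.81% of all promoters), TATAAA in 0 (13.6%) and the Grainyhead-like motif AACNNGTT in 0 (4.20%). All motifs were read on both strands, and a motif missing from these windows says nothing of the factor.

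Zfp36 itself was higher in every KI library than in every WT library. Its normalized count, which is the count scaled for library size and composition, was 2152 ± 277 (SD, n = 5) in WT and 5427 ± 766 (SD, n = 5) in KI skin, a log2 fold change of 1.33 (SE 0.12, adjusted p = 0.0019 by the quasi-likelihood test of edgeR, Benjamini-Hochberg adjusted over all genes).

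None of the 10 genes differed between the genotypes beyond the spread between mice. By the same edgeR test, 0 of 10 were lower in KI skin at an adjusted p under 0.05, where 19.1% of all genes tested were lower, and 0 of 10 were higher, where 15.3% of all genes were. With the added requirement of a fold change over 2, used by the study, the count was 0 of 10 against 8.31% of all genes. The WT and KI values overlapped in all 10, whereas they did not overlap in 23.1% of all genes. At an unadjusted p under 0.05 the count was also 0 of 10, against 47.1% of all genes. DESeq2 passed 0 of 10, and 0 at an unadjusted p under 0.05, while limma-voom passed 0 of 10 and had 1 at an unadjusted p under 0.05. The median log2 fold change of the 10 was -0.21 (range -0.43 to 1.05) and that of all genes 0.0076, and 7 of the 10 had the lower mean in KI skin, as did 49.1% of all genes. In these bulk libraries, fewer cells of a type and less RNA per cell cannot be told apart.

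Klk5, which starts the cascade, had normalized counts of 3018, 3256, 3680, 3372 and 3580 in WT mice 1 to 5. The KI mice gave 2313, 2250, 2107, 3793 and 3622. Mice 1, 2 and 3 of the KI group thus lay below every WT mouse, and KI mouse 4 lay above every WT mouse. The means were 3381 ± 263 and 2817 ± 819 (SD, n = 5 each), with a log2 fold change of -0.26 (SE 0.17, 95% interval -0.64 to 0.11, adjusted p = 0.242).

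Klk7, the chymotrypsin-like enzyme and the most abundant of the kallikreins here, had 20244, 32979, 19262, 28724 and 24618 normalized counts in WT mice 1 to 5 and 23864, 16593, 16493, 31958 and 22659 in the KI mice. The highest library was WT mouse 2 and the lowest were KI mice 2 and 3, with the other libraries interleaved. The log2 fold change was -0.17 (SE 0.21, 95% interval -0.64 to 0.29, adjusted p = 0.536).

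Klk14, a trypsin-like enzyme that KLK5 activates, was the least abundant and the most variable. Its normalized counts were 27.6, 71.1, 31.7, 119 and 214 in the WT mice and 29.2, 76.0, 115, 617 and 132 in the KI mice. KI mouse 4 stood apart, at 4.68 times the next highest KI mouse, and the other 4 KI values fell within the WT range. The log2 fold change of 1.05 had an SE of 0.81 and a 95% interval from -0.75 to 2.84 (adjusted p = 0.327). Without KI mouse 4 it was -0.094, so the higher mean in the KI group rested on that mouse.

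Spink5, the inhibitor, which lies on chromosome 18, was the steadiest of the 10 together with Klk5. It had 14291, 18547, 16640, 15689 and 14955 normalized counts in the WT mice and 16611, 11642, 11438, 19124 and 14446 in the KI mice. KI mice 2 and 3 were the lowest and KI mouse 4 the highest of all. The means were 16024 ± 1659 and 14652 ± 3289 (SD, n = 5 each). The log2 fold change was -0.13 (SE 0.15, adjusted p = 0.510), and its 95% interval, -0.46 to 0.20, spans a fold of 0.729 to 1.15.

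**Figure D1:**
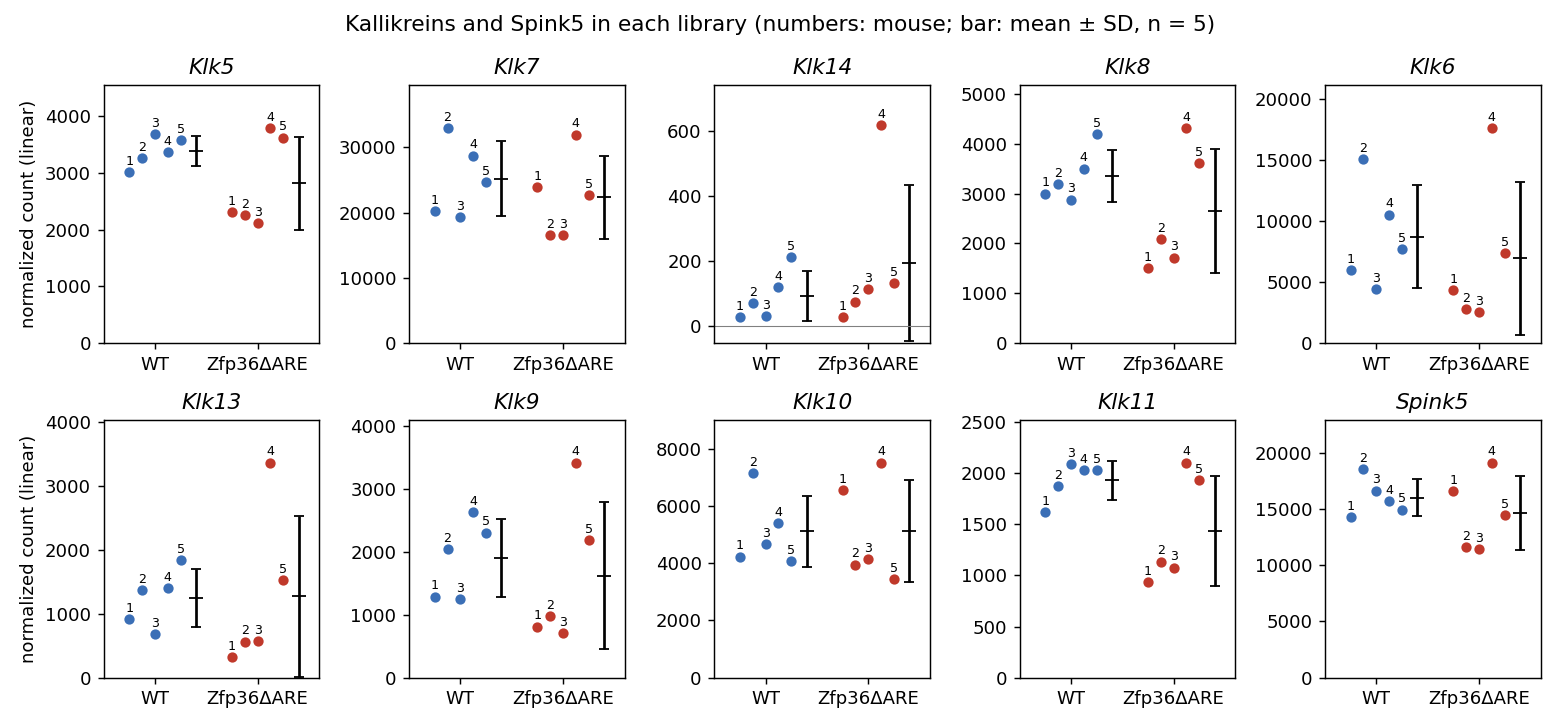
Normalized count (linear axis, 1 panel per gene) of the 9 kallikreins and Spink5 in each library, with WT in blue, KI (Zfp36ΔARE) in red, the number of the mouse above each point and the group mean ± SD (n = 5) as a bar. The groups overlap in all 10 panels, and KI mouse 4 is the highest library in 9 of the 10.

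Klk8, a trypsin-like protease of the granular layer also known as neuropsin, had 3001, 3191, 2881, 3505 and 4204 normalized counts in the WT mice and 1505, 2079, 1716, 4322 and 3608 in the KI mice. KI mice 1, 2 and 3 were again the 3 lowest of the 10 libraries. Its log2 fold change was -0.34 (SE 0.28, 95% interval -0.97 to 0.28, adjusted p = 0.352).

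Klk11, another trypsin-like member, came nearest to a difference. The WT mice had 1616, 1876, 2091, 2028 and 2031 normalized counts, and the KI mice 937, 1135, 1077, 2103 and 1936. KI mice 1, 2 and 3 lay well under the lowest WT mouse, while KI mouse 4 was the highest library. The log2 fold change was -0.43 (SE 0.22, 95% interval -0.91 to 0.06, adjusted p = 0.148). Without KI mouse 4 it was -0.60 and passed the test (adjusted p = 0.047), in a fit where 17.2% of all genes passed as lower. It was the 1 gene of the 10 to pass when single libraries were left out in turn, and its adjusted p over those 10 fits ranged up to 0.277.

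Klk6, a trypsin-like protease that is raised in many skin tumors, had 5934, 15042, 4377, 10514 and 7690 normalized counts in the WT mice and 4347, 2793, 2518, 17604 and 7343 in the KI mice. The spread within each group was several-fold, 3.44 times from the lowest to the highest WT mouse and 6.99 times in the KI group. Klk6 had a log2 fold change of -0.33 (SE 0.55, 95% interval -1.56 to 0.89, adjusted p = 0.657).

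Klk13, a trypsin-like protease of stratified epithelia, had 918, 1368, 677, 1398 and 1843 normalized counts in the WT mice and 327, 564, 570, 3367 and 1530 in the KI mice. The group means were nearly the same, 1241 ± 454 and 1272 ± 1259 (SD, n = 5 each), although 3 KI mice lay below every WT mouse and 1 far above. Klk13 thus had a log2 fold change of 0.03 (SE 0.59, 95% interval -1.30 to 1.35, adjusted p = 0.976). Its sign turned under other settings and without single libraries, among them KI mouse 4 (-0.74).

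Klk9, whose role in skin is less well defined, had 1291, 2048, 1253, 2641 and 2308 normalized counts in the WT mice and 812, 979, 714, 3423 and 2193 in the KI mice, a log2 fold change of -0.24 (SE 0.45, 95% interval -1.23 to 0.76, adjusted p = 0.696). Klk10, a family member found in cornifying epidermis, had 4232, 7155, 4662, 5404 and 4085 in the WT mice and 6563, 3947, 4136, 7510 and 3455 in the KI mice. Its log2 fold change was 0.00 (SE 0.24, 95% interval -0.52 to 0.53, adjusted p = 0.991), and its sign also turned with the setting. The Klk10 order differed from that of Klk9: KI mouse 1 was among the 3 highest libraries for Klk10 and among the 3 lowest for Klk9.

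**Figure D2:**
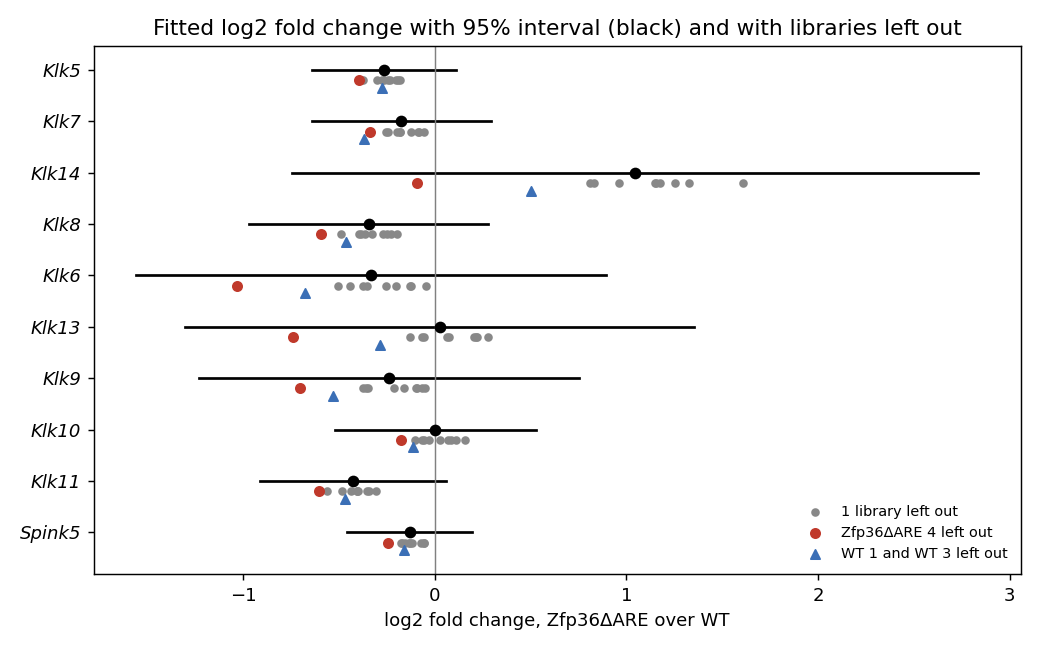
Log2 fold change of KI (Zfp36ΔARE) over WT for each gene, with its 95% interval in black, the estimates without 1 library in grey, without KI mouse 4 in red and without WT mice 1 and 3 in blue. All 10 intervals include 0, and leaving out KI mouse 4 moved Klk14 from 1.05 to -0.094 and Klk13 from 0.03 to -0.74.

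The intervals show what these 10 libraries could and could not see. For Spink5, Klk5 and Klk7 the lower bounds were folds of 0.729, 0.641 and 0.642, so a fall to less than those levels lay outside the intervals. For Klk6 and Klk14 the intervals ran from folds of 0.339 to 1.86 and of 0.596 to 7.14, so even a doubling or more of Klk14 was not detectable here.

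The intervals were wide where the mice of a group differed most. The biological coefficient of variation, the spread between libraries beyond counting error, was 20.2% for Klk5, 20.4% for Spink5, 24.7% for Klk11, 26.4% for Klk7, 27.6% for Klk10 and 31.4% for Klk8. It rose to 48.2% for Klk9, 59.2% for Klk6, 63.0% for Klk13 and 83.0% for Klk14, against a median of 14.9% over all genes tested. The last 4 stood at percentiles 96.7 to 99.1 of all genes. In 10 of 10 genes the coefficient of variation over mice was larger in the KI than in the WT group, as in 40.0% of all genes. For Klk5 it was 7.78% in WT and 29.1% in KI skin, and for Klk11 9.94% and 37.5%.

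Part of this spread was shared between the genes, a pattern that was noticed in the values and is given as a description. KI mice 1, 2 and 3 were the 3 lowest of the 10 libraries for Klk5, Klk6, Klk8, Klk9, Klk11 and Klk13, which is 6 of 10 genes, where 7.85% of all genes had that order. In the same 6 genes these 3 mice each lay below the lowest WT mouse, as they did in 19.3% of all genes. KI mouse 4 was the highest library for every gene but Klk7, 9 of 10, against 10.2% of all genes. For Klk6, Klk8, Klk9 and Klk13 the 5 highest libraries were KI mouse 4, WT mice 2, 4 and 5 and KI mouse 5, an arrangement found in 0.901% of all genes. The 9 kallikreins share a locus and every gene was read from the same 10 libraries, so they are not independent observations.

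Keratinocyte marker scores followed these library orders in part. A score, the mean log2(CPM + 1) of a marker list, was computed for 9 genes of stressed or wound-edge keratinocytes, which include Krt6a, Krt16, Krt17 and Sprr1b. It was highest in KI mouse 4 (9.49), WT mouse 4 (8.40), WT mouse 2 (8.09), WT mouse 5 (7.93) and KI mouse 5 (7.90). These are the 5 libraries just named. Among the other 5 it was lowest in WT mice 3 and 1 (6.05 and 6.69), below KI mice 1, 2 and 3 (7.08, 6.84 and 6.74). For Klk6, Klk8, Klk9 and Klk13, KI mice 1, 2 and 3 were the lowest instead. Krt16, the keratin of activated epidermis, ran from 4328 normalized counts in KI mouse 3 to 52608 in KI mouse 4. All 9 stress markers were tested and 0 passed in edgeR (1 at an unadjusted p under 0.05, median log2 fold change 0.47). DESeq2 passed 1 and limma-voom 0. Among the 9, Krt17 was at 0.17 (SE 0.27, adjusted p = 0.654) and Sprr1a at 0.75 (SE 0.28, adjusted p = 0.060) in edgeR. Without WT mice 1 and 3 edgeR again passed 0 of the 9, with Krt17 at -0.11 (adjusted p = 0.805) and Sprr1a at 0.41 (adjusted p = 0.189). With this score as a term in the edgeR fit, an alternative chosen after seeing the data, 3 of the 10 passed as lower in KI skin: Klk6 (-0.77, adjusted p = 0.019), Klk9 (-0.54, adjusted p = 0.046) and Klk11 (-0.53, adjusted p = 0.044). In that fit 19.8% of all genes passed as lower. The score is measured after treatment in the same libraries and is itself an outcome, and its part in the kallikrein values was not tested.

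The list of 10 suprabasal markers of the interfollicular epidermis had its 3 lowest scores in KI mice 1, 2 and 3 (8.54, 8.85 and 8.72). The other 7 libraries were higher, up to 9.38 in KI mouse 5, with KI mouse 4 at 9.18. Of the 10, 1 was higher and 2 were lower in KI skin by edgeR (median -0.38), and 7 had an unadjusted p under 0.05. DESeq2 passed 6 and limma-voom 3, and without WT mice 1 and 3 edgeR passed 0. Krt10 and Krt1, the main suprabasal keratins, had log2 fold changes of -0.62 (SE 0.24, adjusted p = 0.068) and -0.37 (SE 0.41, adjusted p = 0.496). With the suprabasal score as a term in the edgeR fit, also chosen after seeing the data, 0 of 10 kallikrein cascade genes passed. An unadjusted p under 0.05 was found for 1, Klk14, which was higher in KI skin (1.97, SE 0.72, adjusted p = 0.084). In that fit 1282 of all 15543 genes passed as lower and 610 as higher, and 5787 had an unadjusted p under 0.05. The part of this score in the kallikrein values was not tested in any other way. Set against Krt10 within each library, Klk5 was at 0.0159 to 0.0199 of the Krt10 count in WT and 0.0203 to 0.0282 in KI skin, which do not overlap. The same ratio for Klk11 was 0.00904 to 0.0113 and 0.0109 to 0.0125, and for Spink5 0.0719 to 0.105 and 0.0811 to 0.202, and these did overlap. Klk7 (0.0833 to 0.187 and 0.127 to 0.290), Klk8 (0.0125 to 0.0234 and 0.0183 to 0.0257) and Klk10 (0.0202 to 0.0405 and 0.0194 to 0.0799) overlapped too. The share of all genes whose ratio to Krt10 does not overlap was not computed. These ratios of normalized counts are not per length, were not tested, and move with Krt10 as much as with the kallikrein. The Klk5 count itself overlapped between the groups and had the lower mean in KI skin, 2817 against 3381 in WT. The Krt10 mean was lower too, at 121883 ± 47040 in KI and 187125 ± 28664 in WT skin (SD, n = 5 each).

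**Figure D3:**
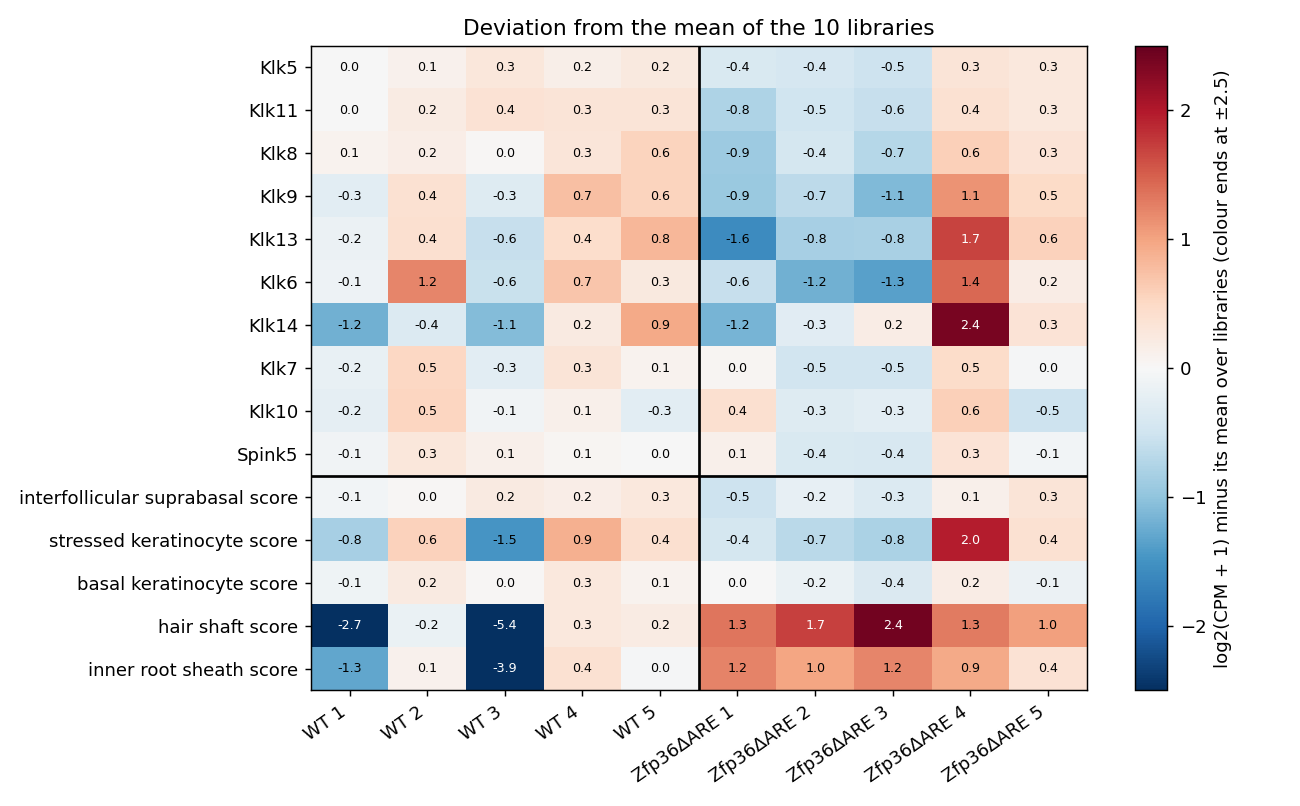
Deviation of each gene (upper 10 rows) and of 5 keratinocyte or hair follicle marker scores (lower rows) from its mean over the 10 libraries, as log2(CPM + 1), with WT mice on the left and KI (Zfp36ΔARE) mice on the right. KI mice 1 to 3 are below the mean for Klk5, Klk11, Klk8, Klk9, Klk13 and Klk6, and the row of the stressed keratinocyte score has its highest value, like theirs, in KI mouse 4.

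Several libraries stood apart from the others of their group. WT mice 1 and 3 had the lowest hair shaft scores, 5.21 and 2.44 against 7.71 to 8.14 in the other WT and 8.89 to 10.3 in the KI mice. Krt33a, a keratin of the hair shaft, had 9806 ± 8384 normalized counts in WT and 48385 ± 20286 in KI skin (SD, n = 5 each; adjusted p = 0.087). All 10 hair shaft markers were tested and 2 passed as higher in edgeR and 10 in DESeq2 (median log2 fold change 2.29). When WT mice 1 and 3 were left out, 10 of 10 passed as higher in edgeR, with Krt33a at 1.61 (adjusted p = 0.016). Without WT mice 1 and 3 together, 0 of the 10 cascade genes passed (0 at an unadjusted p under 0.05), with Klk6 at -0.68, Klk7 at -0.37, Klk11 at -0.46 and Spink5 at -0.16. Of all 15724 genes tested without these mice, 1424 passed as lower and 1080 as higher, fewer than with all libraries. Y-linked genes had 3349 to 4262 counts in KI mice 2 to 5 and at most 1 count in KI mouse 1 and all WT mice. Xist, the RNA of the inactive X chromosome of females, had 4 to 15 counts in KI mice 2 to 5. It had 14829 to 28087 in KI mouse 1 and the WT mice. As a term in a fit, Y-linked counts entered as a yes-or-no mark for more than 100 counts. This mark sets KI mice 2 to 5 apart from the other libraries. With Y-linked counts as a term, 0 of 10 passed in edgeR, the only tool run with it, and 2 had an unadjusted p under 0.05. In that fit 0 of all 15543 genes passed (lowest adjusted p = 0.184, with 3382 genes under 0.05 before adjustment), and the count of 0 therefore says nothing of these genes. The genotype difference in that fit rests on KI mouse 1 alone, and Klk8 was then at -1.16 (SE 0.46, adjusted p = 0.206), Klk11 at -1.04 (SE 0.36, adjusted p = 0.191) and Klk5 at -0.55 (SE 0.30, adjusted p = 0.300). For KI mice 2 to 5 genotype and sex cannot be told apart, since no WT mouse was male by these counts.

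Levels were compared between genes only per length, as normalized counts per kb of the gene length in the deposited table. Klk7 led in both groups, with 14421 ± 3306 per kb in WT and 12787 ± 3649 in KI skin (SD, n = 5 each). Klk6 followed with 6178 ± 2985 and 4909 ± 4448, then Klk10 with 3772 ± 926 and 3783 ± 1327. Spink5, at 3363 ± 348 and 3075 ± 690 per kb, came next, ahead of Klk5 at 2729 ± 212 and 2274 ± 661 and Klk8 at 2539 ± 400 and 2002 ± 943. Klk11, Klk9 and Klk13 were close to one another in WT skin, at 1331 ± 132, 1294 ± 419 and 1201 ± 440 per kb, and their order changed in KI skin, where Klk13 (1231 ± 1219) came before Klk9 (1101 ± 792) and Klk11 (992 ± 372). Klk14 was last at 72.9 ± 60.6 and 153 ± 189. In both groups the steps from Klk7 to Klk6, from Spink5 to Klk5 and down to Klk14 were larger than the SDs of both neighbours, as was the step from Klk8 to Klk11 in WT skin. All other neighbours in the order differed by less than the larger of their SDs.

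Klk7 made up a nearly fixed share of the kallikrein mRNA in WT skin. Of the summed level per kb of the 9 kallikreins it held 43.0% ± 0.64 (SD, n = 5; range 42.0 to 43.7) in WT and 45.6% ± 6.31 (n = 5; range 36.5 to 52.3) in KI skin. It was 52.3, 47.9 and 49.3% in KI mice 1, 2 and 3, 36.5% in KI mouse 4 and 42.2% in KI mouse 5, so KI mice lay on both sides of the WT range and 1 within it. The Klk6 share took the opposite course, at 11.8, 9.98 and 9.32% in KI mice 1, 2 and 3 and 24.9% in KI mouse 4. These lay below and above a WT range of 12.1 to 24.3%, with KI mouse 5 within it at 16.9%. Shares of 1 sum are bound to each other, since a larger share of 1 gene leaves less for the rest. In normalized counts both genes were low in KI mice 2 and 3 and high in KI mouse 4. Klk7 had 16593, 16493 and 31958 there, and Klk6 2793, 2518 and 17604. Klk10 held 11.3% ± 1.66 and 13.7% ± 4.05 of the sum. The sum of the 9 kallikreins was 9.94 ± 1.78 times Spink5 in WT and 9.25 ± 2.08 times in KI skin (SD, n = 5 each), with ranges of 7.36 to 11.5 and 7.50 to 12.5. These shares and ratios are descriptions and were not tested.

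**Figure D4:**
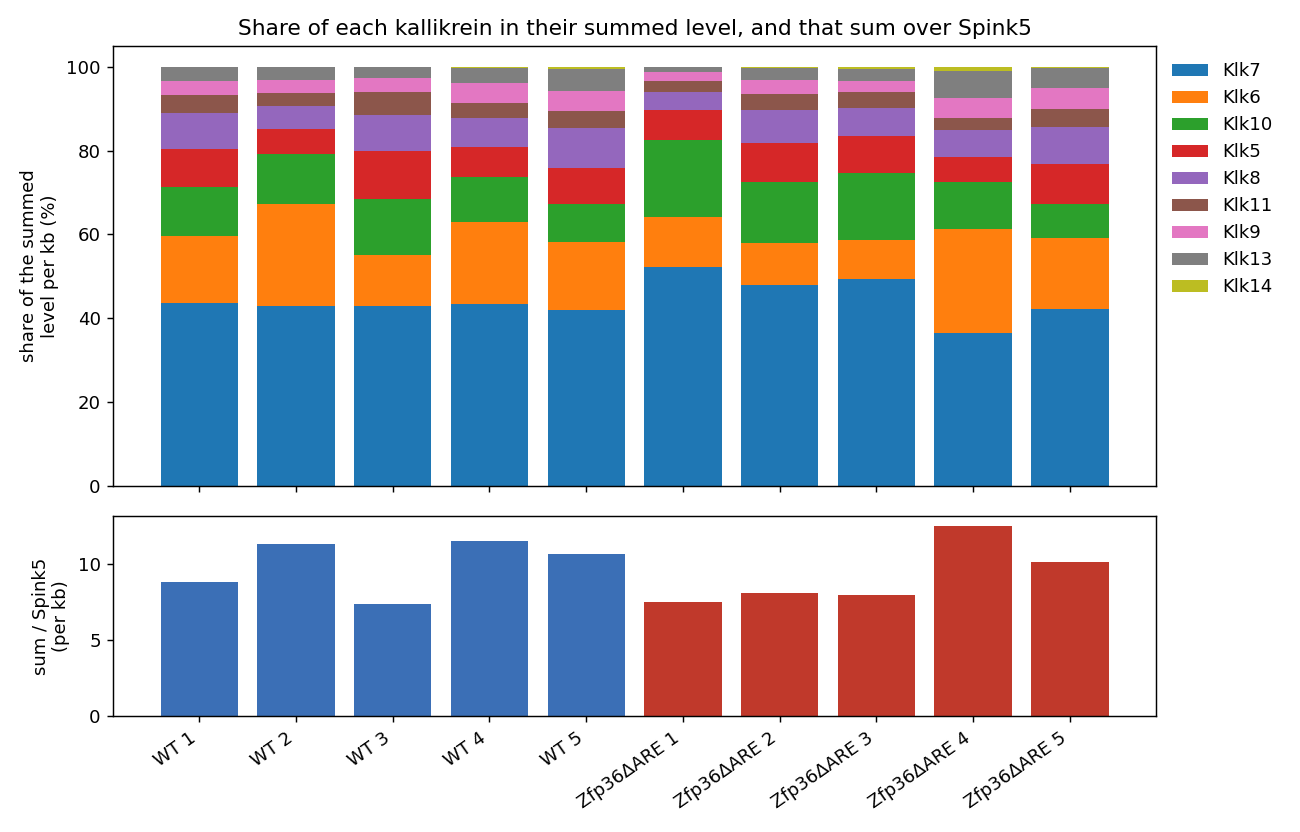
Upper panel: share of each kallikrein in the summed normalized count per kb of the 9 kallikreins (percent, stacked from 0 to 100) in each library. Lower panel: that sum divided by the Spink5 level per kb, with WT in blue and KI (Zfp36ΔARE) in red. Klk7 holds 42.0 to 43.7% in the WT mice and 36.5 to 52.3% in the KI mice.

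Along the locus, no neighbouring pair of the 9 genes had fold changes whose intervals were apart. Of the other 17 kallikrein genes in the table, 2 were expressed highly enough to be tested, and the rest, Klk1, Klk4 and the Klk1b genes, had few or no counts. Klk12, which lies between Klk13 and Klk11, had 71.4 ± 17.1 and 90.4 ± 89.9 normalized counts (log2 fold change 0.32, SE 0.51, adjusted p = 0.640), with KI mouse 4 at 250 and the other KI mice at 40.7 to 71.2. Klk15, which starts 243 kb downstream of the start of Klk14 and beyond Klk5, was the 1 kallikrein that passed. It had 14.7, 25.8, 0, 31.1 and 45.4 normalized counts in the WT mice and 84.7, 131, 180, 103 and 149 in the KI mice, without overlap, a log2 fold change of 2.44 (SE 0.55, adjusted p = 0.011). Its lowest values were in WT mice 3 and 1, the libraries with the lowest hair shaft scores, and without them its log2 fold change was 1.93 (SE 0.31, adjusted p = 0.0077).

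**Figure D5:**
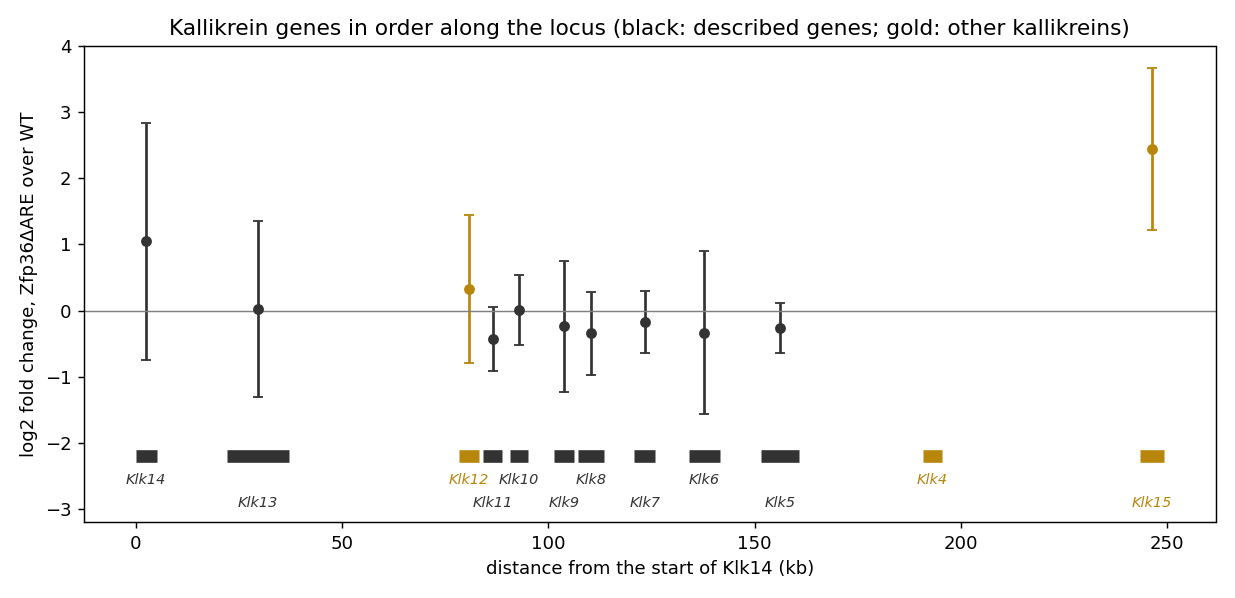
Log2 fold change of KI (Zfp36ΔARE) over WT with its 95% interval for each kallikrein, placed by distance from the start of Klk14 in kb, with gene bodies drawn below. Black marks the 9 described genes, all with intervals that include 0, and gold the other kallikreins, of which Klk15 has a log2 fold change of 2.44 and Klk4 was not tested.

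Around the cascade, other inhibitors, activators and substrates were read from the same fit, where 15.3% of all genes were higher and 19.1% lower. Of 11 other Kazal-type inhibitors 5 were tested and 1 was higher, Spink6, an inhibitor of kallikreins in human skin, with 18.2 ± 15.5 normalized counts in WT and 67.1 ± 33.0 in KI skin (log2 fold change 1.86, SE 0.65, adjusted p = 0.048), a call that limma-voom did not make. Spink6 was lowest in WT mice 3 and 1 (0 and 8.29), and without them it did not pass (1.28, adjusted p = 0.107). Spink12, the most abundant of them, had a log2 fold change of 0.47 (SE 0.97, adjusted p = 0.726). Of 9 other epidermal protease inhibitors 2 were higher and 2 lower. Spint1 and Spint2, the membrane inhibitors of matriptase, rose by 0.81 (SE 0.22, adjusted p = 0.020) and 0.30 (SE 0.10, adjusted p = 0.037) on the log2 scale. Cst3, the cysteine protease inhibitor cystatin C, fell by 0.36 (SE 0.10, adjusted p = 0.023) and Serpina3n, a secreted serpin, by 0.90 (SE 0.23, adjusted p = 0.017). Spint1 and Spint2 were lowest in WT mice 1 and 3, at 2547 and 1580 and at 2968 and 2804 normalized counts, and Cst3 was highest in WT mouse 3. Without these mice Spint1 (0.52, adjusted p = 0.0072) and Cst3 (-0.23, adjusted p = 0.046) still passed, while Spint2 (0.18, adjusted p = 0.153) and Serpina3n (-0.81, adjusted p = 0.083) did not. Cst6, the cystatin of cornifying keratinocytes, had a log2 fold change of -0.19 (SE 0.28, adjusted p = 0.605).

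Of the 5 corneodesmosome genes that the kallikreins cut, 1 was higher. That was Cdsn, which encodes corneodesmosin, with 17550 ± 5121 normalized counts in WT and 26424 ± 4442 in KI skin (log2 fold change 0.59, SE 0.21, adjusted p = 0.047). Cdsn was lowest in WT mice 1 and 3 (11404 and 12682), the 2 libraries low in hair shaft markers, and without them it did not pass (0.32, adjusted p = 0.144). Dsg1a and Dsc1, the desmosomal cadherins of the upper epidermis, had log2 fold changes of 0.05 (SE 0.09, adjusted p = 0.702) and 0.32 (SE 0.13, adjusted p = 0.082).

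Of 11 activators and other epidermal proteases tested, 2 were higher and 1 lower (median log2 fold change -0.03). St14, which encodes matriptase, the membrane protease upstream of the kallikreins, rose by 0.75 (SE 0.20, adjusted p = 0.019), and Prss8, its partner prostasin, by 0.55 (SE 0.17, adjusted p = 0.034). Plat, the tissue plasminogen activator, fell by 0.37 (SE 0.11, adjusted p = 0.029). St14 and Prss8 were lowest in WT mice 1 and 3, at 4317 and 2558 and at 1490 and 1426 normalized counts. Without these mice St14 still passed (0.50, adjusted p = 0.012), and Prss8 (0.31, adjusted p = 0.091) and Plat (-0.24, adjusted p = 0.144) did not. The proteases with the most counts, Asprv1, Ctsd, Ctsl and Casp14, did not pass, with log2 fold changes from -0.39 for Casp14 to 0.22 for Ctsl.

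Of 7 receptors and other substrates tested, 1 was higher and 2 lower (median -0.10). F2rl1, the protease-activated receptor that KLK5 and KLK14 cleave, had 1715 ± 437 and 2215 ± 257 normalized counts (log2 fold change 0.37, SE 0.16, adjusted p = 0.101). Flg2, the filaggrin-like protein of the cornified layer, fell by 0.76 (SE 0.19, adjusted p = 0.015) with no overlap between the groups, and Il1b, the cytokine whose precursor KLK7 can cleave, fell by 1.17 (SE 0.37, adjusted p = 0.034). Smpd1, a sphingomyelinase of the lipid barrier, rose by 0.30 (SE 0.09, adjusted p = 0.027). Without WT mice 1 and 3 none of the 7 passed, with Flg2 at -0.62 (adjusted p = 0.059), Il1b at -0.93 (adjusted p = 0.162) and Smpd1 at 0.19 (adjusted p = 0.094). Among markers of other cells in these biopsies, 8 of 8 macrophage, 4 of 6 adipocyte and 6 of 8 skeletal muscle genes were lower in KI skin (median log2 fold changes -1.37, -1.30 and -1.51), as were 3 of 6 sebaceous gland and 2 of 7 basal keratinocyte genes (medians -0.55 and -0.17). With WT mice 1 and 3 left out, 8 of 8 macrophage, 4 of 6 adipocyte and 1 of 8 skeletal muscle genes passed as lower. So did 4 of 6 sebaceous gland and 1 of 7 basal keratinocyte genes. In that fit 1424 of all 15724 genes tested passed as lower, fewer than with all libraries. Of 7 inner root sheath genes 0 passed in edgeR (6 at an unadjusted p under 0.05), 4 in DESeq2 and 0 in limma-voom (median 1.36). Without WT mice 1 and 3, 5 of the 7 passed as higher in edgeR. Krt5 and Krt14, the basal keratins that define keratinocytes, had at least 72653 and 47223 counts in every library. The part of cell content in the kallikrein values was not tested.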

How the data were processed

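RNA of 10 mouse skin libraries (5 WT, 5 KI) was sequenced. The authors dropped low-quality reads, mapped those left on mm10 with STAR 2.5.2b and counted fragments per gene with featureCounts of Subread 1.5.0-p1, as the submitters' processing notes state, and deposited raw counts with no normalization, beside a gene length column. Strand and multi-mapping settings of the counting are not given in the sources used here, so counts of overlapping or near-identical genes are uncertain. Rows with no symbol (2, holding 7.38e-05% of counts) were left out.

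The deposited counts were fitted in edgeR 4.0.16 (R 4.3.3) with TMM scaling, filterByExpr, robust quasi-likelihood dispersions and genotype as the only term. P-values were adjusted by Benjamini-Hochberg over all 15543 genes, and 95% intervals and SEs come from the same fit. Normalized counts are scaled to the mean effective library size. Alternatives were DESeq2 1.42.0, limma-voom (limma 3.58.1), other scalings and filters, added terms and left-out libraries. The scripts were tested on simulated data. Counting error is small for genes with high counts, where precision is limited by the number of mice. It is larger for Klk14, Klk15 and Spink6, whose lowest raw counts in a library were 26, 0 and 0.

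The genes, marker lists and tests were chosen with earlier results of these data known. Named were all 10 genes, Zfp36, up to 4 tested genes of each pathway list and 2 of each marker list with the most counts. Serpina3n, St14, Prss8, Plat, Il1b, Krt16 and the ratio to Krt10 were added after their values were seen. Same-numbered WT and KI mice did not deviate together (correlations -0.19 to 0.09), so no pairing was used. Gene models are GENCODE vM21 and promoters RefSeq.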

Additional observations from a re-analysis of the deposited data

Results flagged for a closer look

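In groups of 5 libraries, 1 mouse stood far from the other 4 when its gap to the nearest of them took up more than 0.71 of the group's range. The groups examined were WT and KI for each of the 10 genes, Zfp36, every tested gene of the pathway and marker lists and the list scores, 272 in all. Chance flags about 1 in 20 groups, or 13.6 of them, and 18 were found. These groups are not independent, since genes of a list move together.

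KI mouse 4 was the high one in 10 of the 18. These were Klk14 (0.825) and Klk12 (0.854), at 617 and 250 normalized counts against at most 132 and 71.2 in the other KI mice, the inhibitor Slpi (0.808), the cytokine Il1b (0.874) and the stressed keratinocyte markers Krt6a (0.714), Krt16 (0.746), Sprr1b (0.842), Sprr2d (0.737), S100a8 (0.794) and S100a9 (0.838). Also in the KI group, Krt81 (0.726) was high in mouse 3. In the WT group, Cst6 (0.736) was high in mouse 2, Cst3 (0.723), Scd1 (0.767) and Retn (0.744) were high in mouse 3, Casp14 (0.929) and Krt2 (0.802) were high in mouse 5 and Krt1 (0.742) was low in mouse 1. No cause of these values was tested.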

How the results depend on the processing

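The count of the 10 genes that passed was 0 under DESeq2, limma-voom, both other scalings (DESeq2's size factors and upper-quartile), both other filters (none, and 10 counts in every library), the replicate block, the Y-linked, hair shaft and suprabasal terms and without WT mice 1 and 3. It was 3 with the stressed keratinocyte score as a term, and 0 to 1 when single libraries were left out. With a fold change over 2 it was 0 in every setting. The 5335 genes that passed in all became 2740 with the replicate block, 0 with the Y-linked term (3382 at an unadjusted p under 0.05), 30 with the hair shaft term, 2504 without WT mice 1 and 3 and 1892 with the suprabasal term, and it was 5584 with the stressed term. Leaving out single libraries gave 3333 to 5349, with 3454 without WT mouse 1, 3333 without KI mouse 2 and 3506 without KI mouse 3. Same-numbered mice were not paired, and the replicate block changed no call among the 10. The suprabasal and stressed terms were chosen after seeing the data.

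The sign turned in these cases, always without passing the test, and the cause was not tested. Klk13 was at -0.52 with limma-voom, -0.0038 with upper-quartile scaling, -0.41 with the replicate block, -1.92 with the Y-linked term, -0.37 with the hair shaft term, -0.50 with the stressed term, -0.28 without WT mice 1 and 3 and -0.74 to 0.28 without single libraries. Klk10 was at -0.030 with limma-voom, -0.029 with upper-quartile scaling, -0.032 with the replicate block, -0.0033 with the filter of 10 counts, -0.10 with the hair shaft term, -0.077 with the suprabasal term, -0.046 with the stressed term, -0.11 without WT mice 1 and 3 and -0.18 to 0.16 without single libraries. Klk14 was at -1.66 with the Y-linked term and -0.094 to 1.61 without single libraries. Klk9 was at 0.19 with the suprabasal term and Spink5 at 0.052 with the Y-linked term.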
